A study of Mus musculus with 6 samples.

Results

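Antigen presentation rests on a small set of linked genes, and 38 of them, from the MHC class I and class II pathways and costimulation, were followed here in differential ATAC-seq peaks of monocytic myeloid-derived suppressor cells (M-MDSCs). They are the listed class I heavy chains, the light chain B2m and the loading machinery, the immunoproteasome with its activator, the class II chains and their processing genes, the transactivators Nlrc5 and Ciita, the costimulatory genes Cd80, Cd86 and Cd40, and the non-classical presenting molecules Cd1d1 and Mr1. A peak was assigned to a gene when it overlapped the gene body or 20 kb either side, with gene positions from GENCODE M21 on mm10. A peak near several of the genes was counted once in totals. All 38 genes were found in the annotation, among 21755 protein-coding genes on chromosomes 1 to 19 and X, although 1 of them, Ifi30, is not typed as protein-coding in that release. The 6 peak lists together held 11800 summits, of which 9 lay near a member.

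The M-MDSCs were sorted as CD11b+ Ly-6C high Ly-6G- cells from tumors that the mouse hepatoma line Hepa 1-6 formed in the liver of wild-type C57BL/6J females, 6 to 8 weeks old. Mice with a high share of MDSCs in blood were chosen before treatment. Each mouse then received vehicle, MS-275 or CXD101 daily for 10 days, the inhibitors at 5 mg/kg. MS-275 and CXD101 both inhibit class I histone deacetylases, which take acetyl groups off histones. There were 2 libraries in each of the 3 groups, called biological replicates in the study, and the authors pooled both libraries of a group before calling peaks.

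In ATAC-seq a transposase inserts sequencing adapters into open DNA, so a peak marks accessible chromatin. Each list names sites where 1 pooled group had more signal than another. An MS-275 gained peak was higher with MS-275 than with vehicle, and an MS-275 lost peak was higher with vehicle. The CXD101 lists are named likewise, and 2 further lists compared the inhibitors directly. The lists held 8480 MS-275 gained, 691 MS-275 lost, 284 CXD101 gained and 693 CXD101 lost peaks, with 1650 higher with MS-275 than with CXD101 and 2 higher with CXD101. The pooled MS-275 and CXD101 groups were each 1.14 times as deep as the vehicle group. Because no value per library was used, no difference below has a spread between replicates or a test between groups. The p-values printed are those of the authors' peak caller, given as −log10 values, and they cover counting error in pooled libraries only. Sorted cells may differ in composition between groups, and a change in accessibility per cell and a change in the mix of cells cannot be told apart in pooled libraries.

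MHC class I molecules carry peptides from the cytosol. The proteasome cuts proteins into peptides, the Tap transporter moves them into the endoplasmic reticulum, and tapasin and its relatives load them onto a heavy chain paired with B2m. MHC class II molecules carry peptides made in endosomes by proteases, where H2-DM exchanges the invariant chain remnant (from Cd74) for a peptide and H2-O restrains H2-DM. Nlrc5 and Ciita drive transcription of the class I and class II genes, and Cd80, Cd86 and Cd40 give T cells or the presenting cell the second signal. Monocytes express class I broadly and raise class II as they mature.

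The sequences of 5 member sites are shown first, namely the B2m site, which recurs in the direct list, both sites of H2-Oa, the stronger Lgmn summit as the MS-275 lost site, and the Psme2 site as the CXD101 lost site. Each is the mm10 plus strand around a summit, read 5′ to 3′, at most 100 bp either side, and without any base annotated as untranslated region. Capitals mark a match to 1 of 7 short motifs: CCAAT (the Y box of class II promoters), TGACGTCA (a CRE), GAAANNGAA (an IRF element), TTCNNNGAA (a GAS element), GGGNNTTCC (an NF-kB form), GAGGAA (a PU.1 or ETS form) and TGANTCA (AP-1). Both strands were searched. No capitals means that none of these letters were found.
B2m, MS-275 gained, chr2:122156219-122156419: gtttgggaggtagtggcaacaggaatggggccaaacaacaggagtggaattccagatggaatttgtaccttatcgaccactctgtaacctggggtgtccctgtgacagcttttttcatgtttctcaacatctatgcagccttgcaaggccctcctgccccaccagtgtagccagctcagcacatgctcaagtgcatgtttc
H2-Oa, MS-275 gained at the gene start, chr17:34092447-34092639: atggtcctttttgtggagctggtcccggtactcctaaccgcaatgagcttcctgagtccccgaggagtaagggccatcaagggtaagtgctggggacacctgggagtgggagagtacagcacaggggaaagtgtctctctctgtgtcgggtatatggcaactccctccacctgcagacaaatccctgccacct
H2-Oa, MS-275 gained in the gene body, chr17:34093699-34093899: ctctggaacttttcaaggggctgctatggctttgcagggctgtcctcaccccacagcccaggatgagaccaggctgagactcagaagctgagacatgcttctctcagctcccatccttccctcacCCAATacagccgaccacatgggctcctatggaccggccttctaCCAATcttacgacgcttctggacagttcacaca
Lgmn, MS-275 lost, chr12:102414782-102414982: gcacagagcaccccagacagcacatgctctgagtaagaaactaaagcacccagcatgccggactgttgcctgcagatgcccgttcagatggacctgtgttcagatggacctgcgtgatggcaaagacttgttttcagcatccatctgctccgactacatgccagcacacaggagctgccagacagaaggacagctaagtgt
Psme2, CXD101 lost, chr14:55591220-55591420: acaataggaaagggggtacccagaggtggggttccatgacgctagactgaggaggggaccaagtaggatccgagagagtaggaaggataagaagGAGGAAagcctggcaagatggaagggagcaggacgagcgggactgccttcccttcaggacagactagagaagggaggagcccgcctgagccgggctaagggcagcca

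Of the 8 distinct summits near members in the lists against vehicle, 3 had a motif match within 100 bp. The second H2-Oa site held CCAAT, nearest at 27 bp from the summit, and 20.6% of all MS-275 gained summits held it within 100 bp. The Psme2 site held GAGGAA at 3 bp from its summit, a motif that 21.9% of CXD101 lost summits held within 100 bp. The Tapbpl site held GAAANNGAA at 75 bp, which 6.33% of MS-275 gained summits held within 100 bp. Shares at the shorter distances of the member sites were not computed. The B2m, Psme1, first H2-Oa and both Lgmn sites had none of the 7. The G and C content of the 201 bases around the B2m summit was 50.7%, against a median of 49.8% over the MS-275 gained list, and the Psme2 site had 58.7% against a median of 49.3% over the CXD101 lost list.

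Few of the antigen presentation genes lay near a differential peak. With MS-275, 5 of 38 (13.2%) had a gained peak within 20 kb, namely B2m, Tapbpl, Psme1, Psme2 and H2-Oa, against 18.8% of all protein-coding genes. Only Lgmn (2.63%) had an MS-275 lost peak, against 2.93%. With CXD101, 0 of 38 had a gained peak, against 0.97%, and Psme1 and Psme2 (5.26%) shared 1 lost peak, against 3.65%. In the direct comparison B2m alone (2.63%) had a peak higher with MS-275, against 6.68%, and 0 members had one higher with CXD101, against 0.0138%. Over all 6 lists, 6 members (15.8%) had at least 1 peak and 32 had none, whereas 23.9% of protein-coding genes had one.

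The members are short genes, with a median length of 8.53 kb against 17.4 kb for protein-coding genes, and a longer gene has a longer window. With windows of equal length, 20 kb either side of the gene start, the MS-275 gained share was again 5 of 38, but the background fell to 13.1%. The shares of members were thus near the background, and 18 of the 38 genes lie on chromosome 17, where neighbours share windows. Merged into 26 stretches of 1817 kb in all, the member windows held 2.75 MS-275 gained peaks per Mb, against 3.22 per Mb of genome. The density was 1.1 against 0.262 for MS-275 lost peaks, from 2 summits of 1 interval. It was 0.55 against 0.263 for CXD101 lost peaks, from 1 peak. For CXD101 gained peaks it was 0 against 0.108, and for peaks higher with MS-275 than with CXD101 0.55 against 0.626. A site with the median vehicle level of the MS-275 gained list, 15.8 tags, needed 32.4 MS-275 tags to be called, a 1.99-fold enrichment. At the median vehicle level of the CXD101 gained list, 16 tags, 34.3 CXD101 tags were needed, a 2.08-fold enrichment. The fold needed depends on the level. At a vehicle level of 24 tags, the upper quartile of the MS-275 gained list, it was 1.79, at the lower quartile of 10.4 tags it was 2.24, and the lowest fold enrichment listed there was 1.40. Differences under the limit of a site's level were not detectable.

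**Figure D1:**
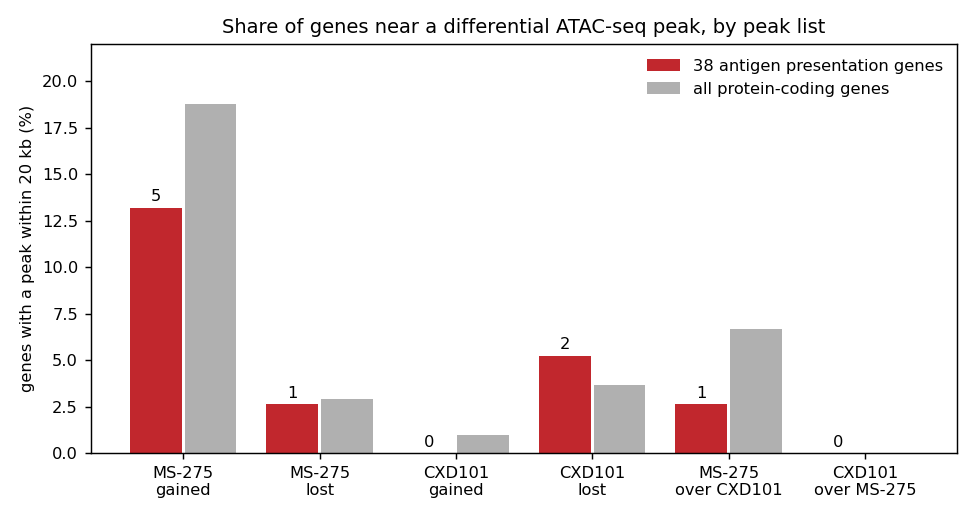
Bars give the percentage of the 38 antigen presentation genes (red, with the number of genes above the bar) and of all 21755 protein-coding genes (grey) that had a peak within 20 kb in each of the 6 lists. The red bar is below the grey bar in 5 lists and above it in the CXD101 lost list, where 1 peak counted for 2 neighbouring genes.

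Promoters, taken as the 5 kb upstream of any annotated transcription start, were touched at 2 members. Psme1 had an MS-275 gained promoter peak, against 5.97% of protein-coding genes, and Psme2 had a CXD101 lost promoter peak, against 0.731%. The Psme1 peak counted through an internal annotated start, and upstream of the gene's own 5′ end no member had an MS-275 gained promoter peak. No member had a promoter peak in the MS-275 lost list (background 0.533%), in the CXD101 gained list (0.244%) or among peaks higher with MS-275 than with CXD101 (1.55%).

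B2m, the light chain that every classical class I molecule needs to reach the surface, had the peak of highest significance among the members. It spanned chr2:122156231-122156431, 3.15 kb past the 3′ end of B2m (chr2:122147686-122153083, plus strand) and 8633 bp from its start. The summit lay in an intron of Patl2 and 4381 bp upstream of Trim69, so that its position does not single out B2m. The recovered levels were 88.3 MS-275 tags over 27.6 vehicle tags, a fold enrichment of 3.12 with a −log10 p-value of 19.8. The MS-275 level there was therefore above the vehicle level. Of the MS-275 gained peaks, 90.0% had a lower −log10 p-value, but only 60.7% had a lower fold enrichment.

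The B2m site was also the only member site in either direct list. The overlapping peak had a fold enrichment of 3.33 of MS-275 over CXD101, with a −log10 p-value of 24. Scaled to the vehicle depth, these were 87.4 MS-275 tags over 25.7 CXD101 tags, beside the vehicle level of 27.6. The CXD101 and vehicle values are both control levels of the peak caller, and thus upper estimates of the level at the summit. A CXD101 level of 51.0 would have been needed for a CXD101 gained call. MS-275 and CXD101 were given at the same dose for the same time, and this was the 1 pair of compounds compared here.

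Tapbpl, a tapasin-related editor of class I peptides, had an MS-275 gained peak just inside its start, at chr6:125231413-125231717. The summit was 205 bp inside the gene, in an exon annotated as untranslated. It was also 379 bp downstream of a start of Vamp1 on the opposite strand, in an intron of that gene. The site thus lies inside both genes, and its position does not single out Tapbpl. It held 54.2 MS-275 tags over 25 vehicle tags, or 2.12-fold, at a −log10 p-value of 6.82. Both values were below those of B2m.

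Psme1 and Psme2 encode the alpha and beta subunits of the PA28 proteasome activator and lie 5.91 kb apart on chromosome 14. The MS-275 gained peak, chr14:55578142-55578355, lay just inside the start of Psme1. Its summit was 120 bp inside the gene and 117 bp upstream of another annotated start, and the peak covered neither start. It held 111.9 MS-275 tags over 46.8 vehicle tags, the highest MS-275 level of the member peaks, or 2.36-fold, at a −log10 p-value of 15.3. This peak was 9.09 kb from Psme2 and was the reason that Psme2 was counted.

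At the other gene of the pair the difference was in the opposite direction and with the other inhibitor. The CXD101 lost peak, chr14:55591225-55591542, had its summit 207 bp upstream of the start of Psme2. The summit was also 388 bp upstream of a start of Rnf31, so its position does not single out Psme2. It held 153 vehicle tags over 101 CXD101 tags, the highest vehicle level of the member peaks and the smallest fold enrichment, 1.51, with a −log10 p-value of 6.25. Only 1.59% of CXD101 lost peaks had a lower fold enrichment. With a fold enrichment of at least 2 or a q-value under 0.001 required, the peak was no longer called. The site was in no MS-275 list. At 153 vehicle tags an MS-275 level under 109.2 would have been called lost, so an MS-275 level somewhat below vehicle cannot be told from no change.

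H2-Oa, the alpha chain of the H2-O heterodimer, was the only class II member with a gained peak. It had 2, both MS-275 gained and both with the summit in an intron. The first, chr17:34092428-34092646, had its summit 199 bp from the gene start and held 50.7 MS-275 tags over 17 vehicle tags, or 2.87-fold, at a −log10 p-value of 10.7. The second, chr17:34093608-34093838, had its summit 1459 bp from the start and held 30.6 MS-275 tags over 11.8 vehicle tags, or 2.47-fold, at a −log10 p-value of 5.62. The non-coding gene BC051537 overlaps both sites. H2-Ob, the beta chain of the heterodimer, was 145.1 kb from the nearest gained peak.

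Lgmn, an endosomal asparagine endopeptidase that trims antigens and the invariant chain, had the only MS-275 lost peak. A single interval, chr12:102414480-102415005, in an intron of the gene (chr12:102394084-102439813, minus strand) held 2 summits, 25239 and 24931 bp from the gene start. At the first there were 32 vehicle tags over 6.99 MS-275 tags, a fold enrichment of 4.13 with a −log10 p-value of 12. The second had 40 vehicle tags over 6.99 MS-275 tags, a fold enrichment of 5.13 with a −log10 p-value of 17.8. The latter was the largest fold of any member peak, and 95.1% of MS-275 lost peaks had a smaller one. Neither summit was in the CXD101 lost list, where a CXD101 level under 20.7 would have been called at the stronger one.

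**Figure D2:**
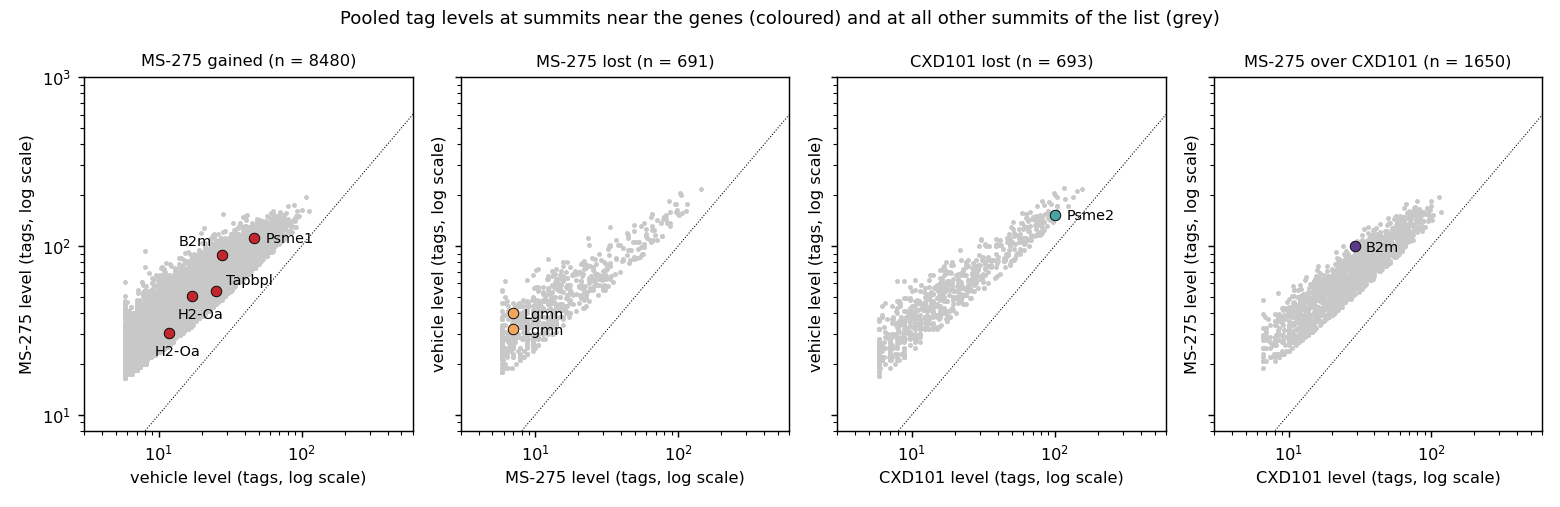
Each panel plots the pooled level of the higher group against that of the lower group, in recovered tags on log axes (at the vehicle depth, or at the CXD101 depth in the direct list), for all summits of 1 list (grey) and the summits near members (coloured and named); the dotted line marks equal levels. B2m lies towards the upper edge of the MS-275 gained and direct lists, both Lgmn summits sit at a low MS-275 level, and Psme2 lies at a high level close to the dotted line.

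The absence of the other MS-275 gained sites from the CXD101 lists was bounded in the same way. At Tapbpl a CXD101 gained call needed 47.5 tags and a direct call needed a CXD101 level of 32.7 or less. At the H2-Oa summits the limits were 36.1 and 30.1 for the first and 28.1 and 15.2 for the second. A CXD101 level between such limits would appear in neither list, so at Tapbpl and H2-Oa it is not shown whether the inhibitors differed. At Psme1 the limits were 77.4 and 79.8 and left no such range, but they take no account of the minimum peak length of 200 bp, and neither list held the site. The vehicle libraries were shared by the comparisons of both inhibitors, so those lists are not independent of each other.

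The class I heavy chains H2-K1, H2-D1, H2-Q4, H2-Q7 and H2-T23 had no peak within 20 kb in any list, and their nearest MS-275 gained peaks were 35.6 to 467.2 kb away. Of the loading genes, Tap1, Tap2, Tapbp, Erap1, Calr, Canx and Pdia3 had none. Tap1 and Tap2, the subunits of the peptide transporter, were 93.7 and 109.7 kb from the nearest MS-275 gained peak, and Erap1, which trims peptides, was the farthest of all members at 683.6 kb. The catalytic immunoproteasome subunits Psmb8, Psmb9 and Psmb10 also had none, where 23.9% of protein-coding genes had a peak in any list. The activator genes Psme1 and Psme2 shared 1 MS-275 gained and 1 CXD101 lost peak.

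On the class II side, the chains H2-Aa, H2-Ab1 and H2-Eb1 had no peak, at 188.9, 163.9 and 212.0 kb from an MS-275 gained peak. H2-DMa, H2-DMb1, H2-DMb2, H2-Ob, Cd74, Ctss and Ifi30 had none either. The stretch from H2-Oa to H2-Eb1 holds 12 of the members in 224.3 kb, and the pair of H2-Oa peaks was all that any of the 6 lists held in it. The transactivators Nlrc5 and Ciita had no peak, at 57.3 and 166.2 kb. Cd80 and Cd86, the ligands of CD28, and Cd40 had none, with MS-275 gained peaks at 40.5, 333.4 and 177.8 kb, and Cd1d1 and Mr1 had none at 74.99 and 43.8 kb.

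**Figure D3:**
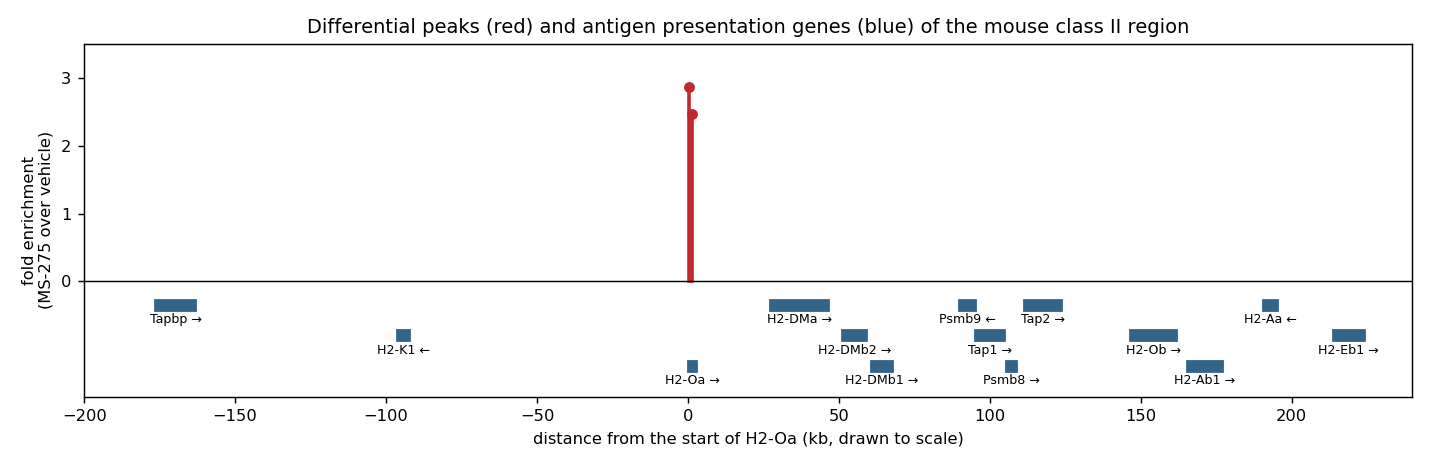
Horizontal positions are distances from the start of H2-Oa in kb; blue boxes are the antigen presentation genes with their strand as an arrow, and red stems give the fold enrichment of each peak of any list. Both stems stand at H2-Oa, at 2.87 and 2.47, and no other gene drawn has one.

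Several members lay just outside the 20 kb limit. Between 20 and 50 kb, 8 had an MS-275 gained peak, which brought the count to 13 of 38 (34.2%) against 28.5% of protein-coding genes. Canx, a chaperone of newly made heavy chains, was closest, with a peak at 20.9 kb that held 33.2 MS-275 tags over 6.2 vehicle tags, a fold enrichment of 4.75. Ifi30, the endosomal thiol reductase, had one at 44.9 kb, just upstream of Il12rb1, with 54.2 tags over 12.6 and a fold enrichment of 4.06, and at the same site a peak 3.39-fold higher with MS-275 than with CXD101. Lgmn had a gained peak 45.1 kb away, near Rin3, with a fold enrichment of 3.33, in addition to its lost peak. Cd80 had one at 40.5 kb with a fold enrichment of 2.77, and Mr1 one at 43.8 kb with 1.60.

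H2-D1, a classical class I heavy chain, had 4 MS-275 gained summits between 20 and 50 kb, with fold enrichments from 2.32 to 3.21, and 2 peaks higher with MS-275 than with CXD101, of 2.2 and 2.31. H2-DMa and H2-DMb2 were counted there through the H2-Oa peaks. Ctss, a protease that degrades the invariant chain, had an MS-275 lost peak at 29.1 kb, near the start of Ctsk, with 62 vehicle tags over 20.98 MS-275 tags and a fold enrichment of 2.87. No CXD101 peak of either direction lay between 20 and 50 kb of a member. The median distance to the nearest MS-275 gained peak was 92.9 kb for the members and 143 kb for protein-coding genes, while for MS-275 lost peaks it was 1390 and 1210 kb.

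**Figure D4:**
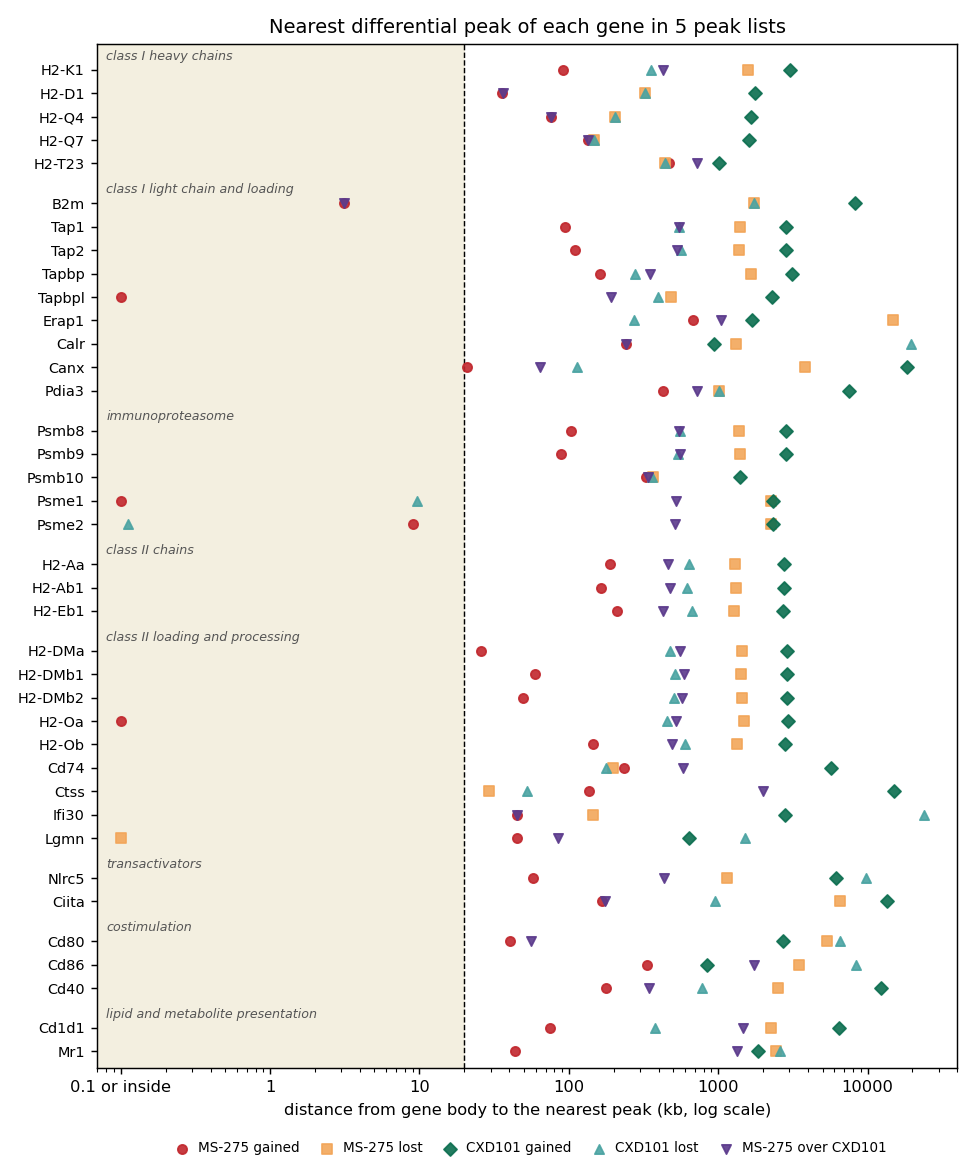
Each row is 1 of the 38 genes, grouped by role, and each symbol is the distance from the gene body to the nearest peak of 1 list in kb on a log axis, with 0.1 standing for any shorter distance; the shaded range ends at 20 kb. Symbols in the shaded range belong to B2m, Tapbpl, Psme1, Psme2, H2-Oa and Lgmn.

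The region between the outermost MHC members, from Tapbp to H2-T23 on chromosome 17, spans 2.12 Mb and held 11 MS-275 gained summits, or 5.2 per Mb against 3.22 per Mb of genome. Of these, 2 were those of H2-Oa and the other 9 were nearest to the starts of Slc44a4, Lst1, Gm16181 and H2-Q1. Hence 17 of the 18 members on the chromosome had no peak in any list, although the mean density over the span was above that of the genome. The summits nearest to Lst1, Gm16181 and H2-Q1 all lay 1094 to 1211 kb from the start of H2-Oa, so the density was not even over the region. The span also held 5 peaks higher with MS-275 than with CXD101, or 2.36 per Mb against 0.626 per Mb of genome. For MS-275 lost and CXD101 lost peaks the densities were 0.945 against 0.262 and 0.472 against 0.263, and for CXD101 gained peaks 0 against 0.108.

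Other genes of the pathway were read in the same way. Of 52 such genes, 9 (17.3%) had an MS-275 gained peak within 20 kb, against 18.8% of protein-coding genes, and 1 (1.92%) had an MS-275 lost peak, against 2.93%. There were 0 with a CXD101 gained peak, against 0.97%, 1 (1.92%) with a CXD101 lost peak, against 3.65%, and 5 (9.62%) with a peak higher with MS-275 than with CXD101, against 6.68%. Creb1, whose product binds class II promoters, had a gained promoter peak with 80.4 MS-275 tags over 29 vehicle tags, a fold enrichment of 2.71. Irf1, an interferon-induced activator of class I genes, had one outside the gene with a fold enrichment of 2.21. Cd274 and Pdcd1lg2, which encode the inhibitory ligands PD-L1 and PD-L2, had intronic MS-275 gained summits of up to 3.76 and 3.67. Pdcd1lg2 also had 4 peaks higher with MS-275 than with CXD101, from 2.54 to 2.83. Of the endosomal proteases, Ctsb had an MS-275 gained peak of 3.40, and Ctsd had both a gained peak of 2.28 and the MS-275 lost peak, of 4.46. Cd83, which stabilizes class II at the surface, had the CXD101 lost peak, at 2.09.

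Markers of cell types that the sort could hold were read beside these counts, since dendritic cells, macrophages and B cells present antigen. Of 43 marker genes, 15 (34.9%) had an MS-275 gained peak, against 18.8% of protein-coding genes, and 5 (11.6%) had an MS-275 lost peak, against 2.93%. There were 0 with a CXD101 gained peak, against 0.97%, 4 (9.30%) with a CXD101 lost peak, against 3.65%, and 5 (11.6%) with a peak higher with MS-275 than with CXD101, against 6.68%. The marker shares were above the background in each list that called any of them. The markers were chosen with earlier results of these data known, and some share peaks, so the comparison is not independent. S100a8 was counted only through a gained peak shared with S100a9, and Itgam in the lost lists only through the Itgax promoter peaks. By type, gained peaks lay near 5 of 7 neutrophil, 3 of 5 monocyte, 3 of 5 T cell, 2 of 7 dendritic cell and 2 of 7 macrophage genes, and near 0 of 5 B cell, 0 of 3 NK cell and 0 of 4 hepatocyte genes. The T cell genes Cd3e, Cd3d and Cd3g were counted through 1 shared peak with a fold enrichment of 1.84. Cd3g also had an MS-275 lost peak of 3.63 and a CXD101 lost peak of 2.60. The 3 gained peaks of Ly6c2, whose product the sort selected for, had fold enrichments from 3.33 to 3.87, and those of Ly6g, whose product it selected against, from 2.69 to 2.99. The other neutrophil genes with gained peaks were S100a8, S100a9, Elane and Mpo, while Ltf had an MS-275 lost peak of 2.34. Dendritic cell and macrophage genes also went both ways. Flt3 had an MS-275 gained peak of 3.01, Ccr7 had gained peaks of 2.48 and 3.16, Apoe had gained peaks of 3.03 and 3.14, and Cd68 had one of 1.73. The promoters of Itgax (CD11c) and Mertk each had a lost peak with both inhibitors, with fold enrichments of 2.14 and 2.58 with MS-275 and of 2.22 and 2.90 with CXD101. The part of cell composition in the peaks near B2m, Tapbpl, Psme1, Psme2, H2-Oa and Lgmn was not tested. Because the lists hold only differential sites, the labelled cell type could not be checked against accessibility at its defining markers.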

How the data were processed

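ATAC-seq libraries of M-MDSCs (2 vehicle, 2 MS-275 and 2 CXD101) were grouped by the treatment label. The authors aligned reads with Bowtie2 to mm10 and called peaks with MACS2 2.2.7.1 with no model and no shift to the transposase cut. Summits may therefore lie away from the cut sites by a distance not measured here, which also applies to the distances printed in bp. They pooled the libraries of a group and set 1 group against another. The deposited fold enrichment is a linear ratio of the treated pileup at the summit to the control level, after a pseudocount of 1 on each. The significance was deposited as −log10 p-values and −log10 q-values, with every listed peak under a q-value of 0.05. The methods name a threshold on the p-value instead, but the smallest −log10 p-value deposited was 3.79, and all deposited peaks were used. The summit offset is the remaining deposited column used.

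The treated tags and the control level were solved from the fold and the p-value of each peak. All 11800 peaks were reproduced, 6 with another solution as well. MACS2 takes as control level the largest of its local averages, which makes it an upper estimate. Levels in the text are at the vehicle depth unless stated. The absolute read number per library is not used here, and no interval or test between groups was computed. The recovery was tested on simulated peaks.

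Peaks and genes overlapped by at least 1 base. Genes of GENCODE M21 and sequences of the mm10 assembly were used. The 38 genes, the other gene lists, the marker lists and the motifs were chosen with earlier results of these data known. The rule for named peaks was every promoter peak of a member, every member peak in the CXD101, MS-275 lost and direct lists, and up to 10 MS-275 gained member peaks of highest −log10 p-value, which took in all 5. Alternatives were other windows, other promoter rules, stricter q-value and fold thresholds, intervals in place of summits and a pseudocount of 0. Python 3.11.15, numpy 2.4.6, scipy 1.17.1 and matplotlib 3.10.9 were used.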

Additional observations from a re-analysis of the deposited data

Results flagged for a closer look

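The accessible site past the 3′ end of B2m stood out because the inhibitors differed there directly. The fold enrichment of MS-275 over CXD101 was 3.33 in the authors' MACS2 comparison of the pooled groups, which has no replicate check. Against vehicle the same site had a fold enrichment of 3.12 with MS-275 and was in neither CXD101 list.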

How the results depend on the processing

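No paired analysis was possible because each peak list came from pooled libraries, and for the same reason no library could be left out. Of the 143 values recomputed, 113 were unchanged or within 1.5 times the reported value and 30 moved further. All were counts or shares, which have no sign, so a change of direction could not be seen. The 113 include counts that were 0 under every setting, such as those of CXD101 gained peaks. With the gene body alone, the members with an MS-275 gained peak numbered 3, and the CXD101 lost and direct lists had 0 members and 0 peaks. With 50 kb either side there were 13 members and 14 peaks in the MS-275 gained list, 2 members in the MS-275 lost list, and 3 members and 4 peaks in the direct list. With 5 kb either side, 1 member had a CXD101 lost peak. A q-value under 0.001 or a fold enrichment of at least 2 left 0 members and 0 peaks in the CXD101 lost list, and the latter left 0 promoter peaks there. Promoters within 1 kb of a start gave 3 members in the MS-275 gained list, and 5 kb upstream of the gene's own 5′ end gave 0. Counted as intervals, the MS-275 lost list had 1 member peak. Windows of 20 kb around the gene start, chosen after seeing the data, left 0 members and 0 peaks in the MS-275 lost list and lowered the background to 1.44% there, 0.57% and 2.05% for CXD101 gained and lost peaks and 4.27% for the direct list. With all annotated genes the background was 1.95% for MS-275 lost and 2.33% for CXD101 lost peaks. A pseudocount of 0 reproduced 23 peaks. The fold a call needed fell as the control level rose, and the spread between libraries was not measured.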
